A study of Mus musculus with 6 samples.

Results

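Genes of respiratory complex I were examined in abdominal white adipose tissue (WAT) of hNAG-1 and wild-type (WT) mice. The members were all genes whose name in the array files begins with Nduf, and 37 genes met this rule among the 27962 gene names of the non-control probes. They comprise 7 core subunits, 8 accessory subunits of the matrix arm, 9 of the proximal and 10 of the distal membrane arm (roles as in textbooks), the acyl carrier protein Ndufab1, the assembly factor Ndufaf1, and Ndufa4, which was named as a complex I subunit and was later assigned to complex IV. The rule reads gene names and no measured value, but the set was taken up with earlier results of these data in view. They were represented by 52 probes, of which 49 passed the filter described below.

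RNA was hybridised to 6 Agilent mouse genome arrays in a single colour, with 3 arrays for each genotype. All mice were C57/BL6 females at 30 wk of age, and each array held RNA pooled from 2 mice. The hNAG-1 mice carry human NAG-1 (GDF15), a divergent member of the TGF-β superfamily, as a transgene, and those hybridised came from a single transgenic line. For hNAG-1 mice in general, the study's methods describe expression in most tissues, which is high in white and brown fat. The promoter of the transgene is not given in the sources used here, and the mouse probes do not check the human transcript.

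Complex I, NADH:ubiquinone oxidoreductase, is the entry point of electrons from NADH into the respiratory chain of the inner mitochondrial membrane. Its core subunits hold the flavin and the iron-sulfur clusters that carry electrons to ubiquinone and the membrane channels that pump protons. Accessory subunits surround this core, and assembly factors bind intermediates without staying in the finished enzyme. Most subunits are encoded in the nucleus and some on mitochondrial DNA. White adipocytes have fewer mitochondria than brown adipocytes, and use them for fatty acid synthesis and glyceride turnover as well as for respiration.

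The sequences that carried the measurement are shown for 3 core subunits, Ndufv1 and Ndufv2 at the NADH site of the enzyme and the iron-sulfur subunit Ndufs8. Each is a 60-base probe from the array files, 5′ to 3′, in lower case throughout.
Ndufv1: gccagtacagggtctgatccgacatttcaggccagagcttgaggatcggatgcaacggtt
Ndufv2: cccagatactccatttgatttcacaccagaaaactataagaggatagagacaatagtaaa
Ndufs8: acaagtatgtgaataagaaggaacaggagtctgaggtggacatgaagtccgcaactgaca
On the mouse build mm7 of the array design, the Ndufv1 probe lies at chr19:3902422-3902585, the Ndufv2 probe at chr17:64306861-64307002 and the Ndufs8 probe at chr19:3806006-3806374. These spans of 164, 142 and 369 bases are longer than the probes, so each probe joins separate stretches of the genome, as a spliced transcript does. In each probe 1 of the 3 reading frames, read 5′ to 3′, holds no stop codon. Of the 37 probes that stand for a member, 10 span more than 60 bases in this way.

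Levels are given as log2 of the processed signal relative to the 75th percentile of the same array, and a fold change is the hNAG-1 mean minus the WT mean on that scale. All 37 genes were well above background on all 6 arrays, and none of their probes was saturated. Every one of the 37 had a log2 fold change above 0, against 58.9% of the 21256 genes tested. Under quantile normalization this count was 35, since Ndufa7 and Ndufb3 then had values of -0.031 and -0.01. The median over the members was 0.36, a 1.28-fold difference, with quartiles of 0.29 and 0.42, and the median over all genes was 0.063. The smallest value was 0.12 (1.09-fold) for Ndufa7 and the largest was 0.54 (1.46-fold) for Ndufs4 and Ndufa12.

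No member passed an adjusted p of 0.05 in limma, nor did any of the 21256 genes (0.0%), and the adjusted p of the members ran from 0.228 to 0.752. At an unadjusted p under 0.05, 24 of the 37 members were higher in hNAG-1 mice, against 8.38% of all genes, and 0 were lower, against 4.09%. This count of 24 depended on the arrays and the scaling. It was 11 without hNAG-1 replicate 2, 12 without WT replicate 1 and 14 without WT replicate 2. The counts over all genes without these arrays are not given here, so these values have no baseline. The count of members was 13 with quantile normalization, 3 with scaling to the median of each array, and 1 with normexp background correction. The count over all 21256 genes changed too, from 1782 as reported to 1813, 1252 and 323 under these 3 settings. In 27 members the 3 hNAG-1 arrays all lay above the 3 WT arrays, against 13.6% of all genes, and in 10 members the groups overlapped. Complex I genes are bright. Of the 5095 genes at least as bright as the dimmest member, 64.0% had a log2 fold change above 0, with a median of 0.08. Of the same genes 13.3% were higher at an unadjusted p under 0.05. Most members were far brighter than the dimmest one, so the 5095 genes are not matched to them in signal. The plot of log2 fold change against signal places the members within all genes tested.

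**Figure D1:**
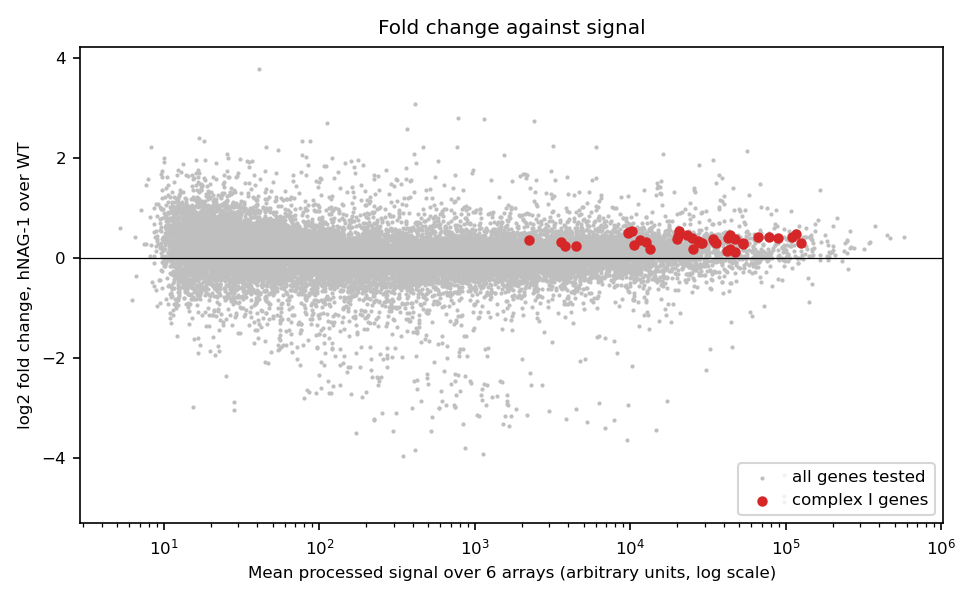
Log2 fold change, hNAG-1 over WT (vertical axis), against the mean processed signal over 6 arrays (horizontal axis, log scale) for the 21256 genes tested (grey) and the 37 complex I genes (red). All red points lie between 0.12 and 0.54, above the line at 0, and larger changes in both directions are seen among the grey points.

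The arrays were on 2 slides. Slide 1 held all 3 WT arrays together with hNAG-1 replicate 1, and slide 2 held the remaining hNAG-1 arrays alone, so 1 hNAG-1 array can be compared with WT within a slide. On it all 37 members were above the WT mean, by 0.08 for Ndufb3 to 0.69 for Ndufv2 with a median of 0.40, whereas the median of all genes was -0.029. In 34 members this array lay above every WT array, as hNAG-1 replicate 2 did in 32 and replicate 3 in 29. The share of all genes that did so is not given here for single arrays, so these counts have no baseline. Set against the mean of the WT arrays, the median of the members was 0.40, 0.38 and 0.30 on the hNAG-1 arrays and -0.0035, -0.10 and 0.078 on the WT arrays. The median of all genes was -0.029, 0.12 and 0.077 on the hNAG-1 arrays and 0.035, -0.011 and -0.033 on the WT arrays. WT replicate 3 was the highest WT array in 25 members and WT replicate 2 the lowest in 29. With slide as a fixed block the genotype difference rests on hNAG-1 replicate 1 alone against the 3 WT arrays, so no count is given.

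**Figure D2:**
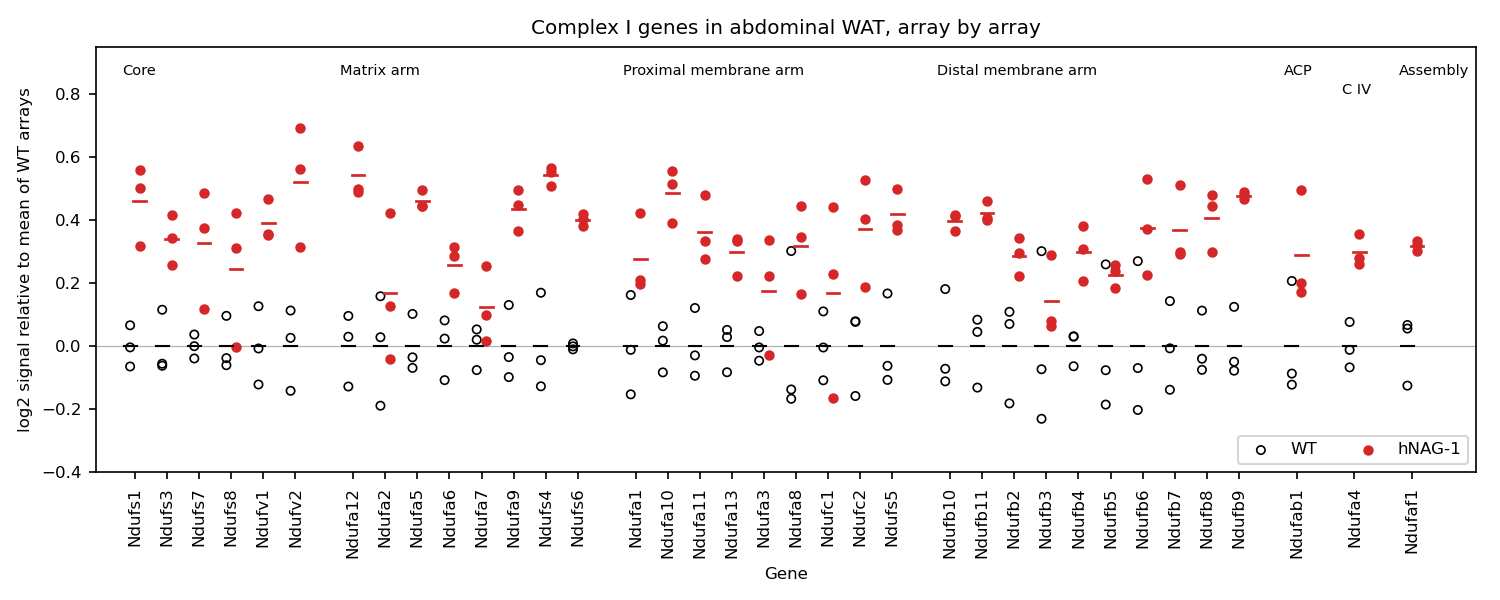
Log2 signal of the complex I genes named on the horizontal axis minus the WT mean of each (vertical axis), with 3 WT arrays as open circles, 3 hNAG-1 arrays as red dots and a bar at each group mean, ordered by role (ACP, acyl carrier protein; C IV, Ndufa4). The red bars are above 0 for every gene shown, and the dots of the 2 genotypes overlap in 10 genes, among them Ndufa8, Ndufb3 and Ndufc1.

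The 7 core subunits had a median log2 fold change of 0.36, from 0.24 to 0.52, and 6 of 7 were higher at an unadjusted p under 0.05. Ndufv1 binds FMN and NADH. Its log2 level was 5.37, 5.61 and 5.48 in WT mice and 5.84, 5.95 and 5.84 in hNAG-1 mice, a log2 fold change of 0.39 (standard error, SE, 0.116, adjusted p = 0.301 in limma). Ndufv2, an iron-sulfur subunit next to Ndufv1, was at 3.30, 3.13 and 3.39 in WT mice and 3.97, 3.84 and 3.59 in hNAG-1 mice. The groups did not overlap in either gene, and the difference for Ndufv2, 0.52 (SE 0.146, adjusted p = 0.282 in limma), was the largest of the core. Ndufs1 carries further iron-sulfur clusters of the NADH-oxidising part, and its probe lies at chr1:63384448-63384507 (mm7). It was at 4.56, 4.50 and 4.63 in WT mice and 5.13, 5.07 and 4.88 in hNAG-1 mice, so that the lowest hNAG-1 array was above the highest WT array. Its log2 fold change was 0.46 (SE 0.117, adjusted p = 0.26 in limma).

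The core subunits described next are in the part that hands electrons to ubiquinone. Ndufs7, which holds the last iron-sulfur cluster before ubiquinone, was at 5.20, 5.16 and 5.24 in WT mice and 5.69, 5.58 and 5.32 in hNAG-1 mice. Its groups did not overlap, and Ndufs7 (0.33, SE 0.133) had an unadjusted p of 0.0499 in limma, the closest of the 24 to the threshold. Ndufs3, at 4.81, 4.80 and 4.98 against 5.12, 5.28 and 5.21, had a log2 fold change of 0.34 (SE 0.113). Ndufs8, another iron-sulfur subunit, was at 2.15, 2.01 and 1.99 in WT mice and 2.47, 2.36 and 2.05 in hNAG-1 mice. It was the core subunit whose groups overlapped, through hNAG-1 replicate 3, and its log2 fold change was 0.24 (SE 0.148, unadjusted p = 0.151 in limma).

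The 8 accessory subunits of the matrix arm had a median log2 fold change of 0.42, from 0.12 to 0.54, with 5 of 8 higher at an unadjusted p under 0.05. Ndufa12 and Ndufs4, both at the NADH-oxidising part of the arm, had the largest values of all members. Ndufa12 was at 3.44, 3.22 and 3.38 in WT mice and 3.84, 3.98 and 3.85 in hNAG-1 mice (log2 fold change 0.54, SE 0.116, adjusted p = 0.228 in limma). Ndufs4, whose loss in people is a cause of Leigh syndrome, was at 4.32, 4.23 and 4.53 in WT mice and 4.87, 4.91 and 4.93 in hNAG-1 mice (0.54, SE 0.121, adjusted p = 0.231 in limma). Ndufa5, in the ubiquinone-reducing part, was at 5.59, 5.45 and 5.42 in WT mice and 5.93, 5.93 and 5.99 in hNAG-1 mice. Its log2 fold change was 0.46 (SE 0.105), and the groups overlapped in none of these 3 genes.

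Ndufs6, a zinc-binding accessory subunit needed for late assembly of the matrix arm, was picked out after its values were seen, because its arrays lay closest together. It was at 4.70, 4.69 and 4.71 in WT mice, an SD of 0.0094 (n = 3), and at 5.12, 5.10 and 5.08 in hNAG-1 mice, an SD of 0.0187 (n = 3). The log2 fold change was 0.40 (SE 0.0953). The members whose values moved most when each array was left out in turn were others: Ndufc1 ran from 0.03 to 0.34, Ndufb3 from 0.03 to 0.30 and Ndufa2 from 0.04 to 0.28. Of the other matrix-arm subunits, Ndufa9, which binds a nicotinamide nucleotide, was at 0.44 (SE 0.115) and Ndufa6 at 0.26 (SE 0.112), with no overlap between groups. Ndufa2 (0.17, SE 0.17) and Ndufa7 (0.12, SE 0.116) overlapped between genotypes. A second, dimmer Ndufa7 probe was at 0.29 (SE 0.109), without overlap.

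Membrane-arm subunits were grouped by their end of the arm. The 9 accessory subunits at its proximal end had a median log2 fold change of 0.32, from 0.17 to 0.49, with 5 of 9 higher at an unadjusted p under 0.05. Ndufa10, which has the fold of a nucleoside kinase, was at 3.22, 3.32 and 3.36 in WT mice and 3.81, 3.85 and 3.69 in hNAG-1 mice, a difference of 0.49 (SE 0.109, adjusted p = 0.231 in limma). Ndufs5, a subunit on the intermembrane-space side, was at 6.77, 6.72 and 7.0 in WT mice and 7.20, 7.33 and 7.21 in hNAG-1 mice, a difference of 0.42 (SE 0.123). Ndufa11, a membrane subunit that in supercomplexes faces complex III, was at 1.22, 1.16 and 1.37 in WT mice and 1.59, 1.73 and 1.53 in hNAG-1 mice. Its difference was 0.36 (SE 0.12), and in these 3 genes every hNAG-1 array was above every WT array. Ndufc2 (0.37), Ndufa13 (0.30), also known as the cell-death regulator GRIM-19, and the X-linked Ndufa1 (0.28) did not overlap between genotypes either. Ndufa8 (0.32), Ndufa3 (0.18) and Ndufc1 (0.17) did overlap. Ndufc1 had the widest hNAG-1 spread of all members, at 5.07, 4.68 and 5.28 on its brightest probe, where hNAG-1 replicate 2 was below all 3 WT arrays. Its other probe was at 3.68, 3.58 and 3.88 in WT mice and 4.10, 3.98 and 3.95 in hNAG-1 mice. On that probe the groups did not overlap (0.29, SE 0.127).

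The 10 accessory subunits at the distal end had a median of 0.37, from 0.15 to 0.48, with 6 of 10 higher at an unadjusted p under 0.05. Ndufb9, a LYR-motif protein that binds an acyl carrier protein, was at 6.85, 6.82 and 7.02 in WT mice and 7.38, 7.36 and 7.39 in hNAG-1 mice, a log2 fold change of 0.48 (SE 0.109, adjusted p = 0.231 in limma). Ndufb11, encoded on the X chromosome, was at 6.20, 5.98 and 6.16 in WT mice and 6.51, 6.57 and 6.52 in hNAG-1 mice, a log2 fold change of 0.42 (SE 0.111). Ndufb8, a subunit whose protein is widely used as a readout of assembled complex I, was at 6.26, 6.30 and 6.45 in WT mice and 6.78, 6.82 and 6.64 in hNAG-1 mice, a log2 fold change of 0.41 (SE 0.116). Groups did not overlap in these genes, nor in Ndufb10 (0.40), Ndufb7 (0.37), Ndufb4 (0.30) and Ndufb2 (0.29). They overlapped in Ndufb6 (0.38), Ndufb5 (0.23) and Ndufb3 (0.15), and in each of these WT replicate 3 was the WT array that reached into the hNAG-1 range.

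The remaining members fall outside the groups above. Ndufab1 is the acyl carrier protein of mitochondrial fatty acid synthesis and is bound in both arms of complex I. Its brightest probe was at 4.84, 4.81 and 5.14 in WT mice and 5.43, 5.10 and 5.13 in hNAG-1 mice, with overlap and a log2 fold change of 0.29 (SE 0.155). Ndufa4 was at 5.84, 5.79 and 5.93 in WT mice and 6.21, 6.11 and 6.13 in hNAG-1 mice, without overlap and with a log2 fold change of 0.30 (SE 0.104). Ndufaf1, an assembly factor of the membrane arm, was at 2.00, 1.82 and 2.01 in WT mice and 2.27, 2.28 and 2.25 in hNAG-1 mice. Its difference of 0.32 (SE 0.108, adjusted p = 0.345 in limma) was therefore close to the median of the subunits.

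Several genes were measured by more than 1 probe, which gives a second reading of the same RNA pools but no further replicate. In 10 genes with several probes that passed the filter no probe differed in sign from another, and all 49 probes had a log2 fold change above 0. The 12 probes not used for a gene's value ranged from 0.10 (Ndufb8) to 0.58 (Ndufab1), and 8 of them were higher at an unadjusted p under 0.05. The choice of the brightest probe set the value most for Ndufab1 and Ndufb8. The unused probes of Ndufab1 were at 0.58 (SE 0.128) and 0.52 (SE 0.2), against 0.29 for the used one, while that of Ndufb8 was at 0.10 (SE 0.134) against 0.41. The differences between probes were not tested.

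Some of these probes read nearly the same stretch of transcript, and their values were alike in some pairs and less so in others. The Ndufa11 probes, which share 50 bases, were at 0.37 and 0.36, and an Ndufs6 pair sharing 33 bases was at 0.40 for both probes. The pairs below are those with the larger differences, an Ndufs6 pair that shares 54 bases and an Ndufa12 pair that shares 40, printed in capitals, 5′ to 3′ as in the array files.
Ndufs6 probe with log2 fold change 0.29: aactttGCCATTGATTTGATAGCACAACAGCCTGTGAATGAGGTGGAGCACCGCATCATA
Ndufs6 probe with log2 fold change 0.40: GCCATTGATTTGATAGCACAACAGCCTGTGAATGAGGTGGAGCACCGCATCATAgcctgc
Ndufa12 probe with log2 fold change 0.36: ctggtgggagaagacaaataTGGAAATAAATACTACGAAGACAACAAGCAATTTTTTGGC
Ndufa12 probe with log2 fold change 0.54: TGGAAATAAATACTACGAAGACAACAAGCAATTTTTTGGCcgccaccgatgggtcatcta
The pairs are offset by 6 bases in Ndufs6 and 20 in Ndufa12 and were read on the same arrays, and the standard errors of the Ndufa12 probes were 0.107 and 0.116. Of the 3 probes that did not pass the filter, those of Ndufs1 and Ndufab1 were well above background on no array, and the Ndufs1 one is listed in the opposite coordinate order to the probe used. The other, for Ndufa12, had no value on WT replicate 2, where its spot was flagged as an outlier. It was brighter than the Ndufa12 probe used, and its log2 fold change over the arrays with a value was 0.49.

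**Figure D3:**
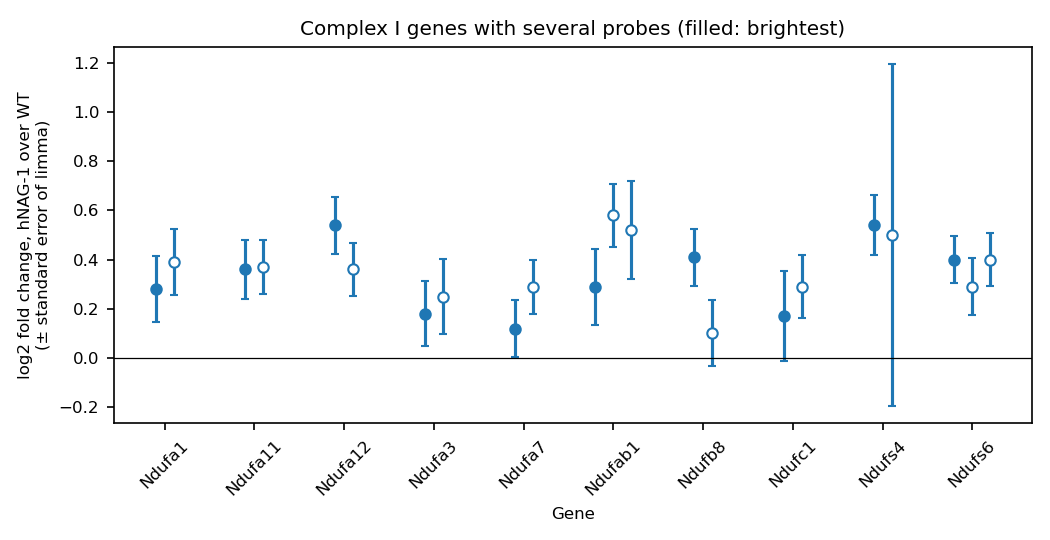
Log2 fold change, hNAG-1 over WT, with its limma standard error, for each probe of the 10 complex I genes with several probes that passed the filter (filled circle, brightest probe, used as the gene's value; open circle, other probes). All points lie above 0, and the probes of Ndufab1 and Ndufb8 lie farthest apart, while the second probe of Ndufs4 has the widest error.

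Levels of the members were correlated across the 6 arrays. The median Pearson r over the 666 pairs of members was 0.82, and it was 0.38 after the genotype means were removed. These values describe arrays that share RNA pools and scaling. The r over pairs of other genes was not computed, so they have no baseline. Other complex I genes whose names in the files do not begin with Nduf mostly had values above 0 too. Through RefSeq names 7 further Nduf genes were found under older names, and all 7 had a log2 fold change above 0. They ran from 0.16 (Ndufv3) to 0.37 (Ndufaf4), with a median of 0.24. At an unadjusted p under 0.05, 2 of 7 were higher, against 8.38% of all genes. Of 24 listed complex I factors and mitochondrially encoded subunits, 9 were measured, 8 above 0 and 1 below, with a median of 0.27 (0.16 without WT replicate 1) and 1 higher at an unadjusted p under 0.05. Among the assembly factors of this list, Tmem126b was at 0.45 (SE 0.153) and Ecsit at 0.29 (SE 0.123). Smaller values were those of Acad9 (0.13, SE 0.161) and Tmem186 (0.11, SE 0.103). Timmdc1, a membrane-arm assembly factor, was at -0.14 (SE 0.107). No mitochondrially encoded subunit was matched by name, so the part of the enzyme made in the organelle is not described here.

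The other complexes of oxidative phosphorylation, for comparison, had medians of similar size. The median log2 fold change was 0.34 over 6 genes of complex II, 0.42 over 8 of complex III, 0.35 over 15 of complex IV and 0.36 over 17 of the ATP synthase. Counts higher at an unadjusted p under 0.05 were 4 of 6, 7 of 8, 7 of 15 and 11 of 17, with none lower. Of all genes 8.38% were higher and 4.09% lower. Sdhb of complex II was at 0.50 (SE 0.113), Uqcr10 of complex III at 0.56 (SE 0.101) and Cox5a of complex IV at 0.50 (SE 0.112). Differences between the complexes were not tested. The 78 proteins of the mitochondrial ribosome had a median of 0.26, with 75 above 0, against 58.9% of all genes. Of 19 genes of mitochondrial biogenesis and its transcription factors, 13 were above 0 and 6 below, with a median of 0.17. Ppargc1a, the coactivator PGC-1α, was at 0.65 (SE 0.159, adjusted p = 0.252 in limma), with -0.90, -0.77 and -1.25 in WT mice and -0.34, -0.22 and -0.40 in hNAG-1 mice. Esrra, a nuclear receptor that acts with it, was at 0.59 (SE 0.191) and Pprc1, a related coactivator, at -0.46 (SE 0.158). Nrf1 itself was at -0.21 (SE 0.118).

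**Figure D4:**
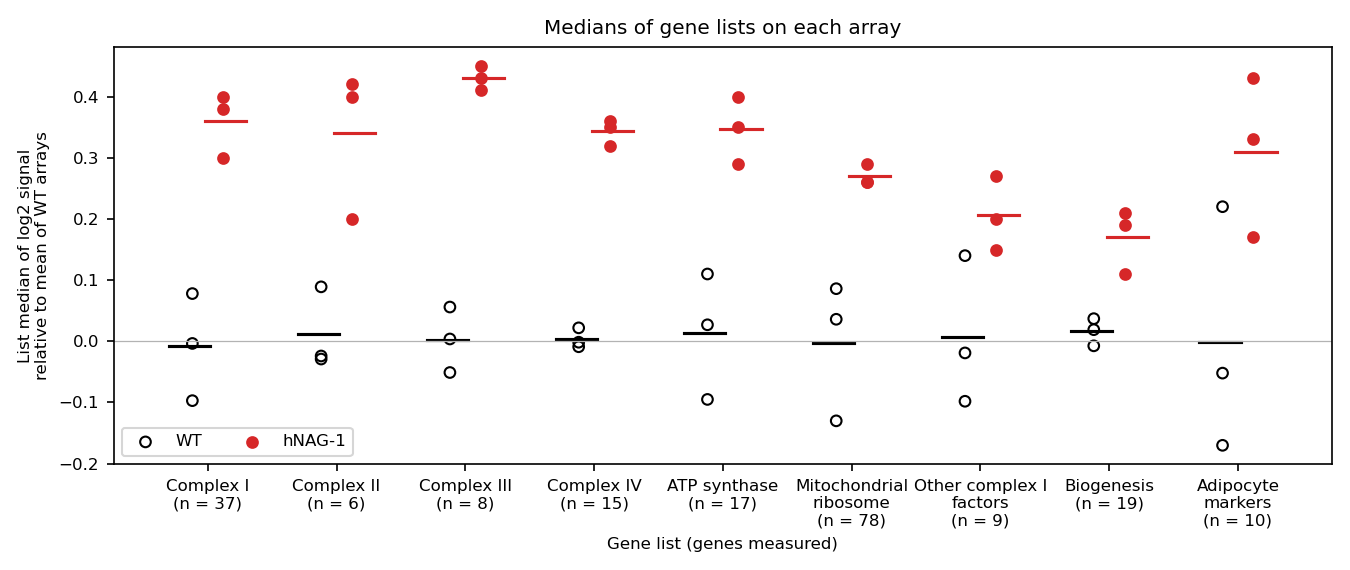
Median of each gene list (log2 signal minus the WT mean, vertical axis), one point per array (open, WT; red, hNAG-1), with a bar at the mean of the 3 arrays; n is the number of genes measured. The red points lie above the open ones in every list except the adipocyte markers, where the 2 genotypes overlap. For the other complex I factors the gap is narrow, with the lowest red point at 0.15 and the highest open point at 0.14.

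Markers of cell types were set beside the complex I genes. In bulk tissue fewer cells of a type and less RNA per cell cannot be told apart. All 10 measured adipocyte markers, which include Adipoq, Plin1 and Fabp4, had a log2 fold change above 0, against 58.9% of all genes. Their median was 0.31, and 3 of 10 were higher at an unadjusted p under 0.05, against 8.38% of all genes. Their summed level, in multiples of the array's 75th percentile, was 1790 to 2180 in WT mice and 2210 to 2650 in hNAG-1 mice. That of complex I was 1370 to 1560 in WT mice and 1820 to 1890 in hNAG-1 mice. Array by array, the complex I median minus the adipocyte marker median was 0.17, -0.046 and -0.14 in WT mice and 0.23, 0.049 and -0.13 in hNAG-1 mice, so this difference overlapped between genotypes. On the hNAG-1 array that shared the slide with WT the adipocyte median was 0.17 and the complex I median 0.40. The part of adipocyte content in the complex I values was not tested.

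Markers of other cell types varied between arrays of the same genotype. Of 7 brown adipocyte markers measured, 3 had a log2 fold change above 0 and 4 below, with a median of -0.12, and their summed level was 43.0 to 185 in WT mice and 71.9 to 108 in hNAG-1 mice. WT replicate 2 stood apart, with a brown marker median of 1.2 against -0.76 and -0.40 on the other WT arrays and 0.25, -0.094 and -0.11 in hNAG-1 mice. Without that array the brown median was 0.36, and on the hNAG-1 array of the shared slide it was 0.25. Ucp1, the uncoupling protein that defines brown adipocytes, was at 1.63, 5.25 and 3.21 in WT mice and 3.62, 1.71 and 2.67 in hNAG-1 mice, a difference of -0.70 (SE 0.987). WT replicate 2 was also the array with exocrine pancreas signal, at a marker median of 1.5 against -0.74 and -0.80, and the pancreas median of -0.48 over all arrays was 0.24 without it. The median of the complex I genes without WT replicate 2 was 0.30.

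Skeletal muscle is a tissue rich in complex I. Of its 7 markers, 6 had a log2 fold change above 0, with a median of 0.22, and they summed to 42.8 to 208 in WT mice and 49.4 to 311 in hNAG-1 mice. The muscle median was 1.3, -0.016 and -1.2 in WT mice and -0.86, 1.8 and -0.44 in hNAG-1 mice, where the complex I medians were 0.40, 0.38 and 0.30. Without WT replicate 3 the muscle median was -0.44 and without hNAG-1 replicate 2 it was -0.53. Of 7 macrophage markers, 6 were below 0, with a median of -0.26 (-0.42 without WT replicate 2). At an unadjusted p under 0.05, 2 of them were lower, against 4.09% of all genes. The summed level of the macrophage markers was 114 to 149 in WT mice and 123 to 129 in hNAG-1 mice. Endothelial and mesothelial markers had medians of -0.092 and -0.051, and each had medians on both sides of 0 when arrays were left out in turn. The part of any of these cell types in the complex I values was not tested.

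The promoters of the members were read for motifs of factors known to act on respiratory chain genes. RefSeq windows (GRCm38.p6) from 250 bases before to 50 after the gene start were found for 33 of the 37 genes, in 35 windows. Their median GC content was 59%, against 52.7% over 32851 windows of all genes. The NRF1 motif, GCGCA then any base then GCGC, sought on both strands as all motifs were, was in 22.9% of member windows and 4.6% of all windows, and the YY1 motif AANATGGCG in 7 of 35 windows and in 2.38%. The ETS motif CCGGAAG, to which GABP binds, was in 14.3% and 8.86%, the CRE motif TGACGTCA in 8.57% and 1.79%, the SP1 motif GGGCGG in 45.7% and 35.7%, and the TATA motif TATAAA in 14.3% and 13.6%. The ERR motif TCAAGGTCA was in 0.0% of member windows and 0.423% of all, which says only that these letters are not in those windows. Matches of different motifs may overlap, and a match is no evidence that a factor binds.

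Shown are 250 bases before the start of Ndufb4, which holds the most NRF1 matches of the members, and of Ndufs6, whose arrays lay closest together, on the minus strand of GRCm38.p6 at chr16:37654369-37654618 and chr13:73328483-73328732. They are written 5′ to 3′ along the gene with NRF1 matches in capitals.
Ndufb4: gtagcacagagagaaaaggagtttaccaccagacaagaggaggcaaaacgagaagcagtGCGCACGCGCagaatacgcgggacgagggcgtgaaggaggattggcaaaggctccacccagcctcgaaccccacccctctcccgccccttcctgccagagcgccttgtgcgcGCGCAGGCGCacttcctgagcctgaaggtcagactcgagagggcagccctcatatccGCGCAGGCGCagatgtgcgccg
Ndufs6: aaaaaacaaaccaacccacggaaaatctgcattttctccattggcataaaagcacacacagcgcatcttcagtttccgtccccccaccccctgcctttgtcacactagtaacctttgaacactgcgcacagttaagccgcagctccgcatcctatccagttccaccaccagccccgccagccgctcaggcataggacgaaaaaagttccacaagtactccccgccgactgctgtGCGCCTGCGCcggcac
Ndufb4, with 3 matches, had a log2 fold change of 0.30 (SE 0.107), and Ndufs6, with 1 match, had one of 0.40 (SE 0.0953).

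The size of the complex I difference also depended on how the arrays were scaled. The median over the members was 0.23 with quantile normalization and 0.55 with normexp background correction, where the median over all genes was 0.017 and -0.20. Under the other ways of processing tried it stayed between 0.30 and 0.40, and it lay above the median of all genes in each.

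**Figure D5:**
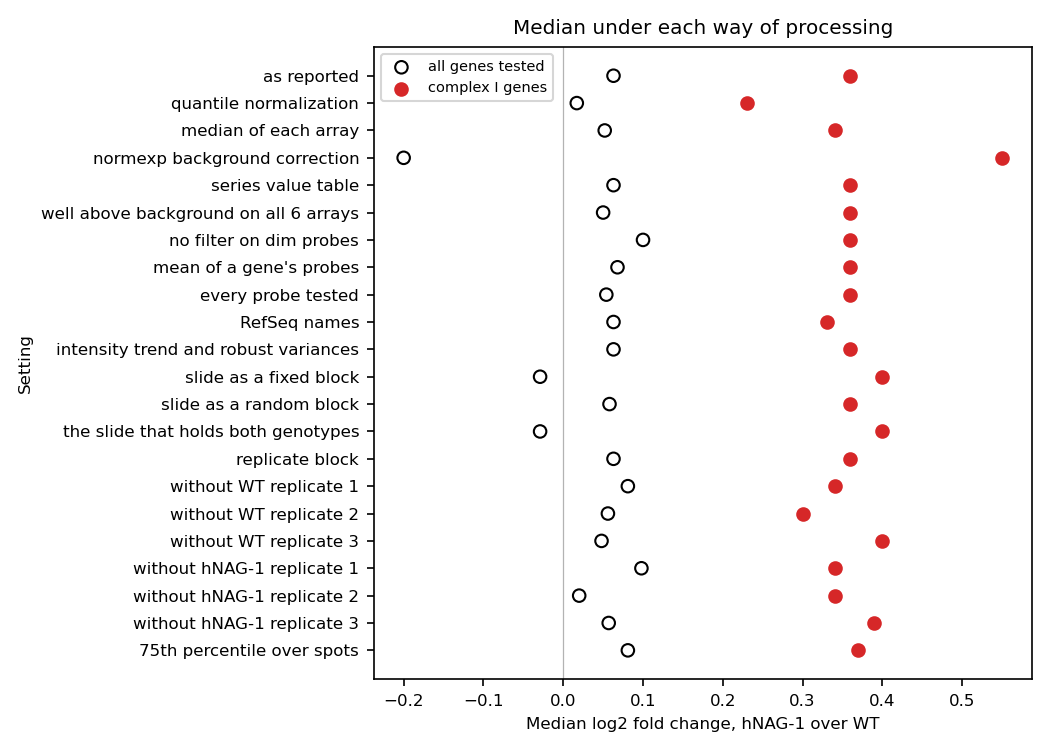
Median log2 fold change, hNAG-1 over WT (horizontal axis), over the complex I genes (red) and over all genes tested (open) under the reported processing and each alternative (vertical axis). The red points run from 0.23 (quantile normalization) to 0.55 (normexp), each to the right of its open point.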

How the data were processed

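Gene expression was measured on 6 arrays, each with RNA of 2 pooled mice, and p-values reflect only how such pools vary; 3 pools a genotype bound the precision. The authors deposited spot intensity from Agilent Feature Extraction 9.5, background-subtracted within each array and not normalized between arrays, and a table whose 45018 rows equal it. The study's methods name an Affymetrix array, whereas the deposited files are from Agilent arrays. Here 1639 control spots and all spots flagged as outliers were removed, and replicate spots were averaged by probe. Log2 intensity minus the array's 75th percentile was then taken. This percentile was 969.6, 912.6 and 935.2 for WT replicates 1, 2 and 3. Every hNAG-1 value was lower: 858.2 for replicate 1, then 711.9 and 628.8 for replicates 2 and 3 of slide 2. The scaling value thus differed by genotype and slide. Fold changes without any scaling were not computed, so its part in the complex I values was not tested. Between 69.5% and 80.1% of spots were well above background, and arrays correlated at r = 0.965 to 0.987. Probes well above background on at least 3 arrays were kept, and a gene, by its name in the file, is its brightest kept probe. The test between genotypes was the two-sided moderated test of limma 3.58.1 (lmFit, eBayes; R 4.3.3), and p-values were adjusted by Benjamini-Hochberg over 21256 genes.

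Probe positions are of build mm7. For lists, names were matched to RefSeq (22951 probes by accession, 6659 by symbol, 3109 by synonym, 8455 unmatched). On simulated data with 21256 genes the fit recovered 0% of genes differing by 0.5 on the log2 scale, 10% at 1 and 71.9% at 2. The genes given in full are core subunits and, in each other role, the 3 with the largest moderated t. The members and lists were chosen with earlier results of these data known. The alternatives were other scalings, background correction and filters, probe and name rules, variance model, slide or replicate number as a block, and each array left out. Of the members counted, 1 is not reported by name.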

Additional observations from a re-analysis of the deposited data

How the results depend on the processing

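No member passed an adjusted p of 0.05 in limma under any of 21 alternatives, and the smallest adjusted p of a member was 0.0793, with an intensity trend and robust variances. The count above 0 was all members in each except quantile normalization (35 of 37), where Ndufa7 was at -0.031 and Ndufb3 at -0.01, and 738 other values of single members kept their direction. The median of the members was 0.23 with quantile normalization and 0.55 with normexp (0.30 to 0.40 with an array left out). The count of members higher at an unadjusted p under 0.05, 24 as reported against 1782 of all genes, depended on the processing. It was 13 with quantile normalization, 3 with scaling to the array median and 1 with normexp, against 1813, 1252 and 323 of all genes. It was 11 to 23 with an array left out, where the counts over all genes are not given. The cause was not tested. Scaling to the 75th percentile over spots, chosen after seeing the data, gave 26, also without a count over all genes.

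The labels do not say that the replicate numbers pair the samples, and the samples were treated as unpaired. Same-numbered arrays correlated at 0.096, 0.511 and 0.092 in their deviations from the group means. Only number 2 correlated best with its own number, and 3 arrays a genotype are too few to settle whether the numbers pair. With the replicate block the count was 13, given without the count over all genes, and the median was 0.36. The simulation recovered no difference of 0.5 at an adjusted p, which is more than the upper quartile of the members (0.42), and 3 pools a genotype limit the precision.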

Other observations

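Further assembly factors were measured outside the main set. Ndufaf5, a factor that modifies Ndufs7, was found under an older name at 0.36 (SE 0.122) and Ndufaf4 at 0.37 (SE 0.12), both with an unadjusted p under 0.05 in limma. Of those named otherwise, Nubpl, which delivers iron-sulfur clusters to complex I, was at 0.27 (SE 0.12), Foxred1 at 0.30 (SE 0.187), Tmem70 at 0.27 (SE 0.112), Acad9 at 0.13 (SE 0.161) and Lyrm2 at 0.017 (SE 0.119). None passed an adjusted p of 0.05.

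In complex IV, 2 members had values below 0. Cox7a1, an isoform of heart, muscle and brown fat, was at -0.28 (SE 0.557), with 4.77 on WT replicate 2 against 2.63 and 3.09 on the other WT arrays, and Cox6b2, a testis isoform, was at -0.09 (SE 0.191). Other tissue-restricted isoforms were above 0, Cox6a2 at 0.35 (SE 0.97) and Cox8b at 0.11 (SE 0.409). Each of these 4 values was within its standard error.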
